A study of Homo sapiens with 6 samples.

Results

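Enzyme genes of serine, proline and cysteine synthesis were followed in a list of H3K27ac regions listed for their change with JQ1 treatment of multiple myeloma cell lines. The 5 genes were PSAT1 and SHMT2 of the serine route, ALDH18A1 and PYCR1 of the proline route, and CTH of the cysteine route. A region was taken for a gene when it overlapped the gene body or, where it overlapped no gene, when that gene had the nearest boundary. This gave 5 of the 838 listed regions, 1 per gene, and each overlapped its gene. The genes were chosen with their fold changes known, so the fold changes are given as a description, without a test.

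H3K27ac, an acetylation of histone H3 found at active promoters and enhancers, was measured by sequencing of immunoprecipitated chromatin (ChIP-seq) in KMS-11, KMS-12 and RPMI8226. These are established human lines of malignant plasma cells, all labelled as wild type. Each line was given either DMSO, the solvent diluted in PBS to an equal volume, or 1 µM JQ1 for 72 h. JQ1 is a small molecule that keeps BET proteins off acetylated histones by filling their bromodomains. The labels give 1 library per line and treatment, 6 in all, with no replicate within a line. The deposited table holds 1 log fold change per region and line and no value of a single library, so the depth is unknown and the values carry no error. Fold changes were read as log2 of JQ1 over DMSO, although neither the log base nor the direction is written in the file. Higher and lower below compare the deposited values, and that a negative value means less H3K27ac with JQ1 rests on this reading. No expression values were used here, so the cell type named in the labels was not checked against markers.

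The authors' deposited table is a filtered list. Every one of its 838 regions was below 0 in each line, and the deposited count of lines in common (2 or 3) matched how many of the values were below -0.5. Passing -0.5 in 2 or more lines, with a negative value in any remaining line, was thus a condition of being listed. Over the list, the median was -0.66 (KMS-11), -0.69 (KMS-12) and -0.56 (RPMI8226).

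Serine is made from a glycolytic intermediate by a short chain of enzymes in which PSAT1, phosphoserine aminotransferase, adds the amino group taken from glutamate. SHMT2, the mitochondrial serine hydroxymethyltransferase, splits serine into glycine and a one-carbon unit that feeds the folate cycle. The serine route as grouped here thus holds an enzyme that makes serine and an enzyme that uses it. Proline is made from glutamate. ALDH18A1 (pyrroline-5-carboxylate synthase) reduces glutamate to the intermediate that PYCR1, a mitochondrial reductase, turns into proline. Cysteine can be made by transsulfuration, in which serine is joined to homocysteine and CTH, cystathionine gamma-lyase, releases cysteine. Several genes of these routes are known targets of ATF4, the transcription factor of the amino acid response, and plasma cells make large amounts of secreted protein.

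Each of the 5 regions sat at 1 end of its gene. The PSAT1 region (chr9:78296580-78297682, hg38) was 1102 bp wide and reached from 545 bp outside the gene to 557 bp inside it. The SHMT2 region (chr12:57229135-57231156) was the widest of the 5 with 2021 bp and reached from 576 bp outside to 1445 bp inside. The region of PYCR1 (chr17:81936436-81937865) was 1429 bp wide and reached from 565 bp outside to 864 bp inside. These 3 regions thus crossed a gene boundary and extended a similar distance beyond it. The regions of ALDH18A1 (chr10:95656126-95656708, 582 bp) and CTH (chr1:70411298-70411865, 567 bp) were narrower and began 3 bp and 30 bp inside the gene. By width they stood at places 770 and 777 of 838 from the widest, and over the whole list the median width was 1164 bp and 50.4% of regions crossed a gene boundary. No other protein coding or lncRNA gene overlapped any of the 5 regions. The nearest other gene was MYADML2, 1780 bp from the PYCR1 region, and then NXPH4, 2686 bp from the SHMT2 region.

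**Figure D1:**
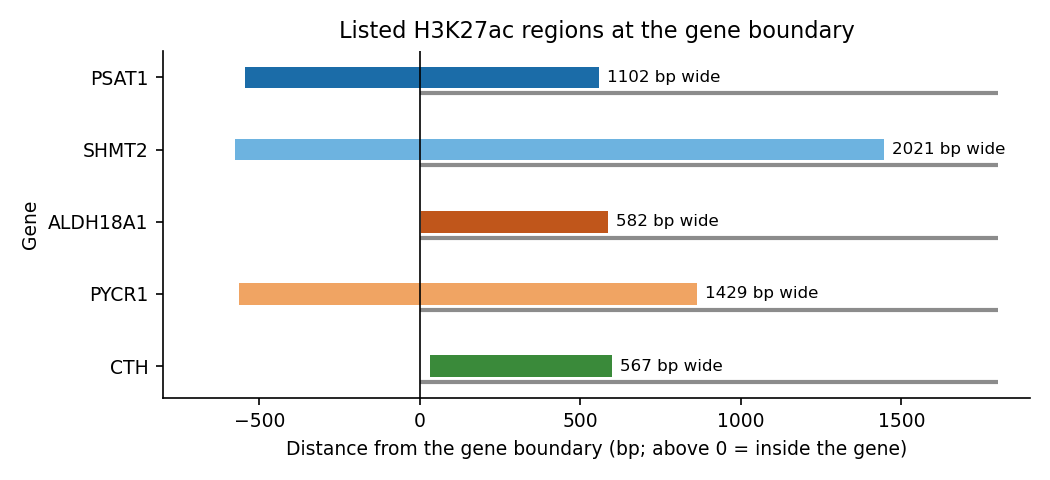
Position of the 5 listed H3K27ac regions (coloured bars) relative to the gene boundary (0, in bp), with the gene body drawn as a grey line to the right. The PSAT1, SHMT2 and PYCR1 regions cross the boundary by 545 to 576 bp, while those of ALDH18A1 and CTH begin 3 and 30 bp inside the gene.

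Promoter sequence was available for 3 of the 5 genes, as RefSeq windows of GRCh38.p14 from 250 bases before to 50 bases after the annotated start. In all 3 genes the end of the gene that carried the region was the annotated start. The window of PSAT1 lay wholly within its region (300 of 300 bases), whereas the regions of ALDH18A1 and CTH held 47 and 20 of the 300 bases, all of them after the start. The 250 bases before the start are shown because they are where these regions differ, lying inside the listed region at PSAT1 and outside it at the other genes. They are written 5′ to 3′ on the strand of the gene, from chr9:78296875-78297124 (plus strand), chr10:95656712-95656961 (minus strand) and chr1:70411018-70411267 (plus strand). Capitals mark matches, on either strand, to the GC box GGGCGG, the CCAAT box CCAAT, the E-box CACGTG and the cAMP response element core site TGACGT.
PSAT1: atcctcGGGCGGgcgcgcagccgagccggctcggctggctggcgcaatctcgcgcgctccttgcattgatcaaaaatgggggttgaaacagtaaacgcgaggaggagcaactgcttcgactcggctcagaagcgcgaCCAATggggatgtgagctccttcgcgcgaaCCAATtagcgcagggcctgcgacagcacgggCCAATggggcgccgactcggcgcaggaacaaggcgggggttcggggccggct
ALDH18A1: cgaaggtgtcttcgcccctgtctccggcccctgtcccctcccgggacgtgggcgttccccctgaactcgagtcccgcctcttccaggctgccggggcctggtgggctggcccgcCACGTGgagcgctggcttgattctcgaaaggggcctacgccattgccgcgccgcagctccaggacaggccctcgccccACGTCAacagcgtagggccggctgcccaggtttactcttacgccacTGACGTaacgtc
CTH: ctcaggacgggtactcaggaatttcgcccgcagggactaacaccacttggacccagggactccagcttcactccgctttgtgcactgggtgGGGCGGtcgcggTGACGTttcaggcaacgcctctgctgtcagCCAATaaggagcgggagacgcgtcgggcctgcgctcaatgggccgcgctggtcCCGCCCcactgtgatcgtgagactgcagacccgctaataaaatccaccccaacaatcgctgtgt

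The letters of the 3 promoters differed. PSAT1 held 3 CCAAT boxes, at -113, -83 and -52 from the start, and 1 GC box. CTH held 1 CCAAT box, 2 GC boxes and 1 core site of the cAMP response element. ALDH18A1 held neither a CCAAT box nor a GC box. It had 1 E-box, the site read by MYC and related factors, and 3 core sites of the cAMP response element, of which the last ran from -5 onto the start itself and is not in capitals. Among all 35116 promoter windows of the RefSeq table, 34.6% held a CCAAT box, 45.0% a GC box, 7.26% an E-box and 7.98% the core site. In the 1276 windows of genes with a listed region these shares were 34.8%, 70.4%, 10.03% and 9.87%. The core site was added after the sequences were seen. The core of the C/EBP-ATF response element, TGATGNAA, which ATF4 binds with a C/EBP partner, was found in 0 of the 3 windows, in 3.62% of all windows and in 2.82% of those of genes with a listed region. The absence of these letters says nothing of sites outside the 300 bases. No match overlapped another.

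**Figure D2:**
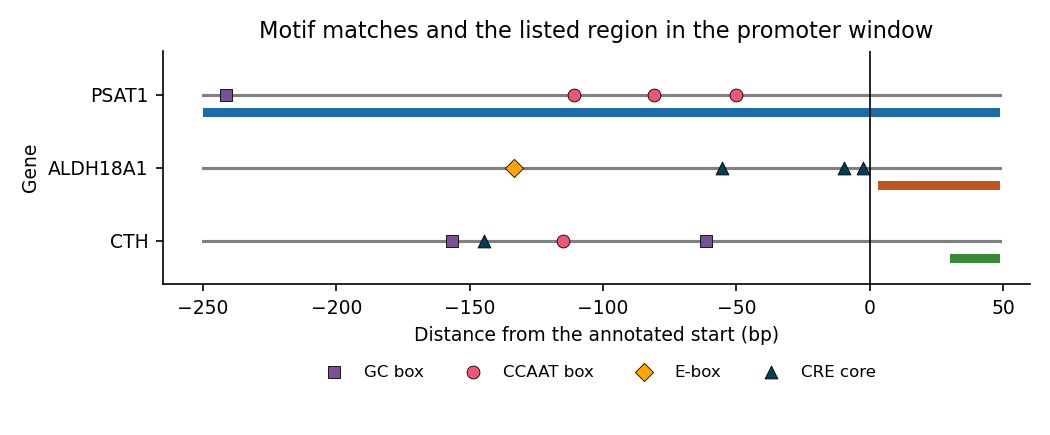
Motif matches in the promoter windows of PSAT1, ALDH18A1 and CTH by distance from the annotated start (bp), with the part of the listed H3K27ac region that falls in the window as a coloured bar below. The PSAT1 region covers all 300 bases, those of ALDH18A1 and CTH cover 47 and 20 bases after the start.

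PSAT1 and CTH had almost the same values. At PSAT1 the authors' deposited table listed log2 fold changes of -0.13 (KMS-11), -0.79 (KMS-12) and -0.68 (RPMI8226). KMS-12 and RPMI8226 were close to each other, and KMS-11 lay near 0. At CTH the authors' deposited table listed -0.08 (KMS-11), -0.82 (KMS-12) and -0.66 (RPMI8226). The order of the lines was the same as at PSAT1, and no value of the pair differed by more than 0.05. The KMS-11 values of PSAT1 and CTH stood at ranks 811 and 825 of 838, where rank 1 is the lowest value. Such high ranks follow in part from the filter, since 83.4% of the list was below -0.5 in KMS-11. Among the 139 regions past -0.5 in KMS-12 and RPMI8226 only, they stood at ranks 112 and 126. Of the 837 other regions, CTH was at place 2 by Euclidean distance from PSAT1 over the 3 fold changes (distance 0.0604), and PSAT1 at place 3 from CTH. This was the closest pair among the genes. The other pairs ran from place 104 (PYCR1 from SHMT2) to place 756 (SHMT2 from PSAT1). PSAT1 and CTH both passed -0.5 in KMS-12 and RPMI8226 only, so the filter put KMS-11 highest at both. The distances use the values by which the genes were chosen, and nothing is read from these places. PSAT1 belongs to the serine route and CTH to the cysteine route, which takes up serine. Whether the likeness has to do with the routes was not tested. The regions themselves lie on different chromosomes.

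SHMT2 had the lowest mean of the 5. The authors' deposited table gave it -0.91 (KMS-11), -1.59 (KMS-12) and -0.41 (RPMI8226). These were the lowest values of the 5 genes in both KMS lines. Read as JQ1 over DMSO, the JQ1 signal would be 53.1%, 33.3% and 75.4% of the DMSO signal, and with the ratio turned it would be 188%, 300.4% and 133%. It ranked at 161 in KMS-11, at 45 in KMS-12 and at 599 in RPMI8226, and its mean over the lines, -0.97, stood at rank 62 of 838. The RPMI8226 rank follows in part from the filter. Among the 299 regions past -0.5 in KMS-11 and KMS-12 only, the RPMI8226 value of SHMT2 stood at rank 60.

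At PYCR1 the lines had the same order as at SHMT2. Both regions passed -0.5 in KMS-11 and KMS-12 only, so the filter put RPMI8226 highest at both. Only the order of the KMS lines was free. The authors' deposited table listed -0.73 (KMS-11), -1.11 (KMS-12) and -0.07 (RPMI8226). RPMI8226 was thus close to 0, at rank 804 in that line, while KMS-12 was at rank 136. Among the 299 regions past -0.5 in KMS-11 and KMS-12 only, its RPMI8226 value stood at rank 265. ALDH18A1, which makes the substrate of PYCR1 and alone of the genes was below -0.5 in every line, had the most even values. In the authors' deposited table they were -0.53 (KMS-11), -0.81 (KMS-12) and -0.51 (RPMI8226). The order of its lines was again the same, with KMS-11 and RPMI8226 almost equal.

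**Figure D3:**
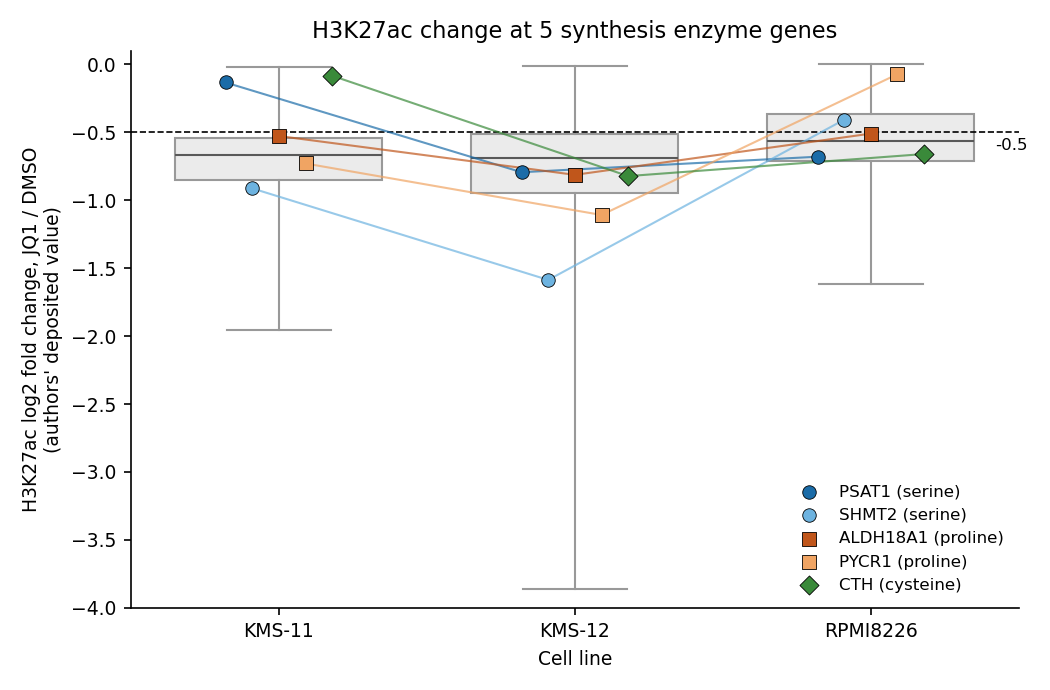
H3K27ac log2 fold change of JQ1 over DMSO at the 5 genes (coloured symbols, 1 value per line, joined only to guide the eye) in the authors' deposited table. Grey boxes show the quartiles and median of all 838 listed regions and whiskers their full range. KMS-12 holds the lowest value of each gene, PSAT1 and CTH are near 0 in KMS-11, and PYCR1 is near 0 in RPMI8226.

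Across the lines, KMS-12 was the only one in which all 5 regions were below -0.5, against 77.7% of all listed regions. In KMS-11 and in RPMI8226, 3 of the 5 were below it, against 83.4% and 64.3% of the list. KMS-12 also held the lowest of the 3 values in 5 of 5 regions, as it did in 44.6% of the list, while KMS-11 and RPMI8226 held it in 33.8% and 21.6%. These counts come from the values by which the genes were chosen, and nothing is read from them. Below -1 there were 2 values, those of SHMT2 and PYCR1 in KMS-12, where 21.2% of the list was below -1. In KMS-11 and RPMI8226 no value of the 5 was below -1, against 13.5% and 4.42% of the list. None of the 5 regions was below -1 in at least 2 lines, against 7.4% of the list. When each line's median over the list was subtracted, KMS-12 was lowest in 4 of 5 regions, and by rank within each line in 3 of 5. PSAT1 then had its lowest value in RPMI8226 by either measure, and CTH by rank.

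By the lines that passed -0.5 the genes fell into 3 classes. SHMT2 and PYCR1 were past it in KMS-11 and KMS-12 (35.7% of the list), PSAT1 and CTH in KMS-12 and RPMI8226 (16.6%), and ALDH18A1 in all 3 lines (25.4%). The remaining class, KMS-11 with RPMI8226, made up 22.3% of the list and held none of the 5. ALDH18A1 lay just inside the threshold, with -0.51 in RPMI8226 and -0.53 in KMS-11, and the nearest value outside it was -0.41 of SHMT2 in RPMI8226, all in the authors' deposited table. At a threshold of -0.6 none of the 5 would be past it in all 3 lines, and at -0.4 both ALDH18A1 and SHMT2 would be.

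The difference between KMS-11 and RPMI8226 had opposite signs among the genes. At PSAT1, CTH, SHMT2 and PYCR1 only 1 of these lines was past -0.5, so the sign restates the class given above. KMS-11 minus RPMI8226 was 0.55 at PSAT1 and 0.58 at CTH, at ranks 802 and 808 of 838 from the most negative. It was -0.51 at SHMT2 and -0.66 at PYCR1, at ranks 158 and 82, and -0.02 at ALDH18A1. The gap between the highest and the lowest line was 1.18 at SHMT2, 1.04 at PYCR1, 0.74 at CTH, 0.66 at PSAT1 and 0.30 at ALDH18A1, beside a median of 0.52 over the list. That median mixes the classes. ALDH18A1 was below -0.5 in every line and the other genes were not, so the gap also depends in part on the class. Each line contributed 1 library per treatment, so a difference between lines cannot be told apart from a difference between libraries.

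**Figure D4:**
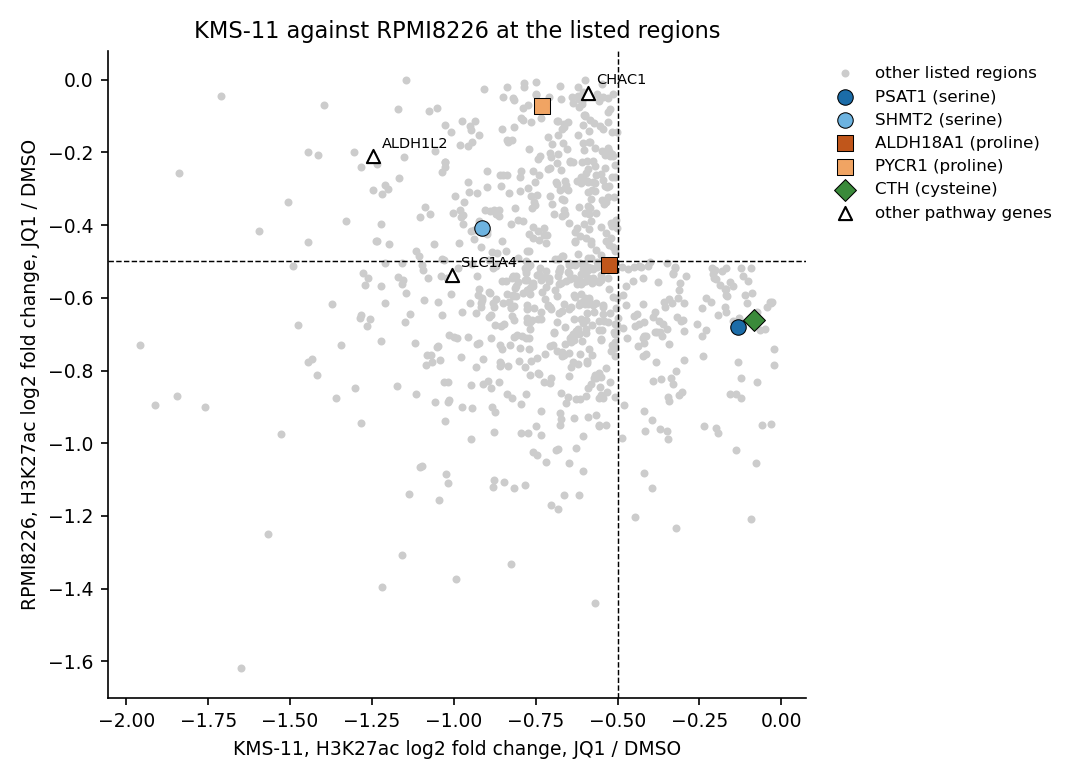
H3K27ac log2 fold change in KMS-11 (horizontal) and RPMI8226 (vertical) for all 838 listed regions (grey), the 5 genes (coloured) and 3 other pathway genes with a region (triangles). Dashed lines mark -0.5. PSAT1 and CTH lie together at the right, SHMT2 and PYCR1 above the horizontal line, and ALDH18A1 at the crossing; the upper right corner is empty because of the filter.

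Grouped by route, the deposited values of genes of 1 route differed, as did the lines in which they passed -0.5. Within the serine route PSAT1 minus SHMT2 was 0.78 (KMS-11), 0.79 (KMS-12) and -0.27 (RPMI8226), so SHMT2 was lower in both KMS lines and PSAT1 in RPMI8226. Within the proline route PYCR1 minus ALDH18A1 was -0.20, -0.30 and 0.44 in the same order. The signs in KMS-11 and RPMI8226 for the serine route follow from which gene passed -0.5 there. So does the sign in RPMI8226 for the proline route. The mean over the 3 lines was -0.75 for the serine route, -0.63 for the proline route and -0.52 for the single gene of the cysteine route. The low serine mean came from SHMT2 (-0.97). PSAT1 (-0.54) was above both PYCR1 (-0.64) and ALDH18A1 (-0.62). Without KMS-11, the line in which CTH was near 0, the order of proline and cysteine turned round. With 2, 2 and 1 regions and no replicate libraries, the routes were not compared by a test.

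Relative to the whole list, 2 of the 5 means were below the median of the list (-0.63), namely SHMT2 and PYCR1. Their means over the lines ran from -0.97 at SHMT2 through -0.64 at PYCR1, -0.62 at ALDH18A1 and -0.54 at PSAT1 to -0.52 at CTH, at ranks 62, 393, 445, 634 and 676. The last 4 differed by less than the gap between lines at any one of them.

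Other enzymes of these and neighbouring routes were looked up in 4 gene lists of 71 genes, which include the 5. Of the other 66 genes, 3 had a listed region, or 4.55%, against 4.11% of all protein coding genes with a region, so the share was near the background. All 3 regions overlapped their gene. In the serine and one-carbon list these were ALDH1L2, a mitochondrial folate dehydrogenase, and SLC1A4, a transporter of neutral amino acids including serine. The authors' deposited table gave ALDH1L2 -1.25 (KMS-11), -0.91 (KMS-12) and -0.21 (RPMI8226). SLC1A4 had -1.004, -0.42 and -0.54 in the authors' deposited table. In both genes KMS-11 was the lowest line. In the list of transsulfuration, methionine and glutathione genes, CHAC1, which degrades glutathione, had -0.59, -1.32 and -0.04 in the authors' deposited table, with the same order of lines as PYCR1. There too the filter put RPMI8226 highest. No other gene of the proline list (0 of 12) and none of the asparagine, aspartate, glutamate and alanine list (0 of 11) had a region. PHGDH and PSPH, which act before and after PSAT1 in serine synthesis, and CBS, which acts before CTH, were among the genes without one. Whether such genes were tested and failed the filter, or were never tested, cannot be read from the list. Promoter windows were available for SLC1A4 and CHAC1, 1 for CHAC1 and 2 for SLC1A4. The CHAC1 window and 1 of the 2 SLC1A4 windows held the full letters TGATGCAA of the C/EBP-ATF response element, as did 0.866% of all windows and 1.02% of the windows of genes with a listed region.

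Regions most like each gene were named by the smallest Euclidean distance over the 3 fold changes, 2 per gene and leaving out the 5 themselves. They were NSMAF and ATXN7L2 for PSAT1 (distances 0.0420 and 0.0783), and CRACR2B and again NSMAF for CTH (0.0257 and 0.0356). For SHMT2 they were SESN2, a stress-induced sestrin, and ADM2, a secreted peptide (0.1001 and 0.135). The authors' deposited table listed SESN2 with -0.88 (KMS-11), -1.52 (KMS-12) and -0.47 (RPMI8226). For PYCR1 they were SLC39A8, a metal ion transporter, and TRIM47 (0.0752 and 0.0875). For ALDH18A1 they were the region shared by CDK13 and CDK13-DT and that shared by MYO1C and LOC107984156 (0.0433 and 0.0669). Likeness was measured over 3 values, 1 per line.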

How the data were processed

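H3K27ac ChIP-seq of 3 cell lines with DMSO or JQ1 (6 samples) was available as 1 table of 838 regions. Its values are log fold changes, 1 per line, computed by the authors before deposition. They were read as log2 because the submitters' processing notes name DESeq2, beside MACS2, hg38 and GRCh38.p13. JQ1 as the numerator is an assumption that nothing in the deposited table settles. The deposited number of lines in common is another column, per the file headers. The sources used here do not give the aligner, peak settings, depth or normalization between libraries. A fold change between libraries depends on that normalization, so a shift common to all regions of a line cannot be seen.

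Regions were assigned with the RefSeq gene table of GRCh38.p14 (20056 protein coding and 18330 lncRNA genes). Ranks, medians, distances, motif matches and the alternatives were computed with Python 3.11.15, pandas 2.3.3 and NumPy 2.4.6. Matplotlib 3.10.9 drew the figures. The assignment was run on simulated regions placed across the lower boundary of known genes. Each overlapped its gene, so recovery was fixed in advance and the nearest boundary rule was not tried. Promoter windows matched 3 of 5 genes by symbol. Named genes were the 5, the list genes with a region, the 2 regions most like each, and the nearest listed region on each side. The members and lists were chosen with earlier results of these data known. No test was run, since the members were chosen on these values and each group held 1 library. Alternatives covered the assignment, the threshold, the scaling of the lines and leaving out each line.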

Additional observations from a re-analysis of the deposited data

How the results depend on the processing

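The number of regions at the 5 genes (5) and of pathway genes with a region (8 of 71) did not move when only overlapped genes or every gene within 5 kb were counted. With a stricter limit, below -1 in at least 2 lines, 0 of the 5 regions were left, against 7.4% of the list. Subtracting each line's median over the list turned the sign of the median of the 5 means, from -0.62 to 0.0218. By gene it gave 0.10 at PSAT1, 0.0218 at ALDH18A1, 0.0017 at PYCR1 and 0.12 at CTH, and SHMT2 stayed below 0 at -0.33. This follows from the construction, which measures each gene against a list filtered for low values. By rank within each line, KMS-12 was lowest in 3 regions instead of 5. Proline minus cysteine was -0.10 over 3 lines and 0.12 without KMS-11, where CTH was near 0. The number of regions past the threshold in all 3 lines was 1 at -0.5, 2 at -0.4 and 0 at -0.6, both limits chosen after seeing the data. The motif count was 0 with or without the free base. No value of a single library was used here, so no library could be left out and no paired fit made. Depth is unknown.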

Other observations

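The nearest listed regions along the chromosome were mostly far away. They lay 3268 and 5325 kb from PSAT1, 1252 and 2057 kb from ALDH18A1, and 2724 kb and 14093 kb from CTH. At PYCR1 and SHMT2 they were closer. The PYCR1 region lay between that of ARHGDIA, 64.1 kb away, and that of RAC3, 93.8 kb away. RAC3 had -1.03 (KMS-11), -0.79 (KMS-12) and -0.13 (RPMI8226) in the authors' deposited table. ARHGDIA had -0.536, -0.504 and -0.338 in the same order in the authors' deposited table. RPMI8226 was nearest to 0 in both, as at PYCR1. The filter fixes this for every region past -0.5 in KMS-11 and KMS-12 only. The SHMT2 region lay 141 kb from that of NEMP1 and 288 kb from that of DDIT3, the stress transcription factor CHOP. In the authors' deposited table DDIT3 had -0.78, -1.48 and -0.63, and NEMP1 -0.47, -0.85 and -0.71. The listed region nearest to CTH was at GADD45A, a stress-induced growth arrest gene, with -1.25, -1.50 and -0.30 in the authors' deposited table, where CTH itself was near 0 in KMS-11.

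The KMS-12 value of PSAT1 was equal, to every deposited decimal, to that of the RAC3 region on another chromosome. Such exact matches within a line involved 26 regions of KMS-11, 36 of KMS-12 and 23 of RPMI8226. None of the other 14 values at the 5 genes was shared with another region.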
